A study of Mus musculus with 6 samples.

Results

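Leptin and insulin signalling was followed through 10 genes chosen by name from the 24513 gene symbols in each count table. They encode the receptors for insulin and insulin-like growth factor 1 (Insr, Igf1r), the substrates that dock to them (Irs1, Irs2), the transcription factor at the end of that route (Foxo1), the kinase, adaptor and transcription factor of the leptin receptor (Jak2, Sh2b1, Stat3), and 2 brakes on both routes (Socs3, Ptpn1). RNA came from whole hypothalamus, with 1 library for each of 3 NS-DADm mice and 3 wild-type (WT) mice. All 6 animals were of the C57BL/6 strain and 3 to 4 months old, and no treatment is named in the labels. NS-DADm mice are known, from the line rather than from the labels, to carry point mutations throughout the body that keep NCOR-family corepressors from switching on the histone deacetylase HDAC3. WT mice carried none of these. The comparison asks how transcript levels in hypothalamus differ when that partnership is broken.

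Insulin binds a receptor tyrosine kinase that phosphorylates IRS proteins, which recruit PI3K and AKT; AKT then holds FOXO1 out of the nucleus. Leptin binds a receptor without enzyme activity of its own, and JAK2 bound to it phosphorylates STAT3, which enters the nucleus and induces Socs3, among other genes. In arcuate neurons both hormones reduce feeding, and SOCS3 and the phosphatase PTP1B, the product of Ptpn1, limit their signals. Most of these steps are changes in phosphorylation or location, which RNA levels do not measure.

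The libraries held 24173076 to 27532590 reads on genes in NS-DADm mice and 26542194 to 27606309 in WT mice, and the 10 genes had 66 to 2671 reads each per library. Levels are given as CPM (counts per 1000000 reads, scaled for library composition), and differences as log2 fold changes of NS-DADm over WT from edgeR, called at a Benjamini-Hochberg (BH) adjusted p under 0.05 over all 15894 genes tested. Ncor1, whose mutated domain need not alter its RNA level, averaged 226 ± 3.9 CPM in NS-DADm, against 230 ± 7.4 CPM in WT mice (SD, n = 3 each; edgeR, BH adjusted p = 0.91), so it does not check the labels. Libraries stood apart in the RNA levels of tissue markers. The summed level of 13 thalamus markers ran from 515 to 576 CPM in NS-DADm and from 758 to 1113 CPM in WT libraries. Of these markers, 13 of 13 were fitted below 0 and 5 fell past the threshold, beside 48.4% and 0.573% of all tested genes. The marker lists were chosen with earlier results of these data known. Anterior pituitary markers, 10 in all, summed to at least 201 CPM in NS-DADm mice, with the highest sum of 2022 CPM in NS-DADm 2, and to 40.5 to 112 CPM in WT mice. Hypothalamus markers were present in every library, with summed levels of 702 to 825 CPM in NS-DADm, against 675 to 736 CPM in WT mice. In whole tissue, fewer cells of a type and less RNA per cell cannot be told apart.

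None of the 10 signalling genes passed the threshold in hypothalamus of NS-DADm against WT mice, where 0.654% of all tested genes did. All 10 passed the filter on low counts. In the edgeR fit 5 were fitted above 0 and 5 below, with a median log2 fold change of 0.000069 against 0.0040 over all genes, and the median size of the change, regardless of sign, was 0.054 against 0.073. At an unadjusted p under 0.05 the count was 1 of 10 (Foxo1), beside 10.9% of all tested genes. The DESeq2 Wald test and limma voom also called 0 of the 10, beside 282 and 86 of all tested genes. Without NS-DADm 2, the library highest in pituitary markers, edgeR again passed none of the 10, and the log2 fold change of Foxo1 was 0.11. That fit passed only 5 of all tested genes. For 3 of 10 the libraries of the groups did not overlap, beside 16.8% of all tested genes: Insr and Foxo1 were higher in every NS-DADm library, as were 7.86% of all tested genes, and Stat3 was lower in every NS-DADm library, as were 8.93%. Leaving Socs3 aside, the 95% intervals of the fold change ran from 0.862 to 1.20 across the genes in this fit. These bounds hold for the fit without a covariate. With the level of the thalamus markers as one, the log2 fold change was -0.26 for Stat3, -0.20 for Irs2 and -0.70 for Socs3 (edgeR, BH adjusted p = 0.53, 0.69 and 0.59). In that fit it was 0.11 for Sh2b1 and 0.12 for Ptpn1 (edgeR, BH adjusted p = 0.83 and 0.85). Each of these lay outside the interval of the gene in the fit without a covariate. Igf1r reached 0.15 among the 15 alternative fits, above the upper bound of its interval, 0.13. The marker level did not overlap between the groups, so that level and genotype cannot be told apart in the covariate fit.

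**Figure D1:**
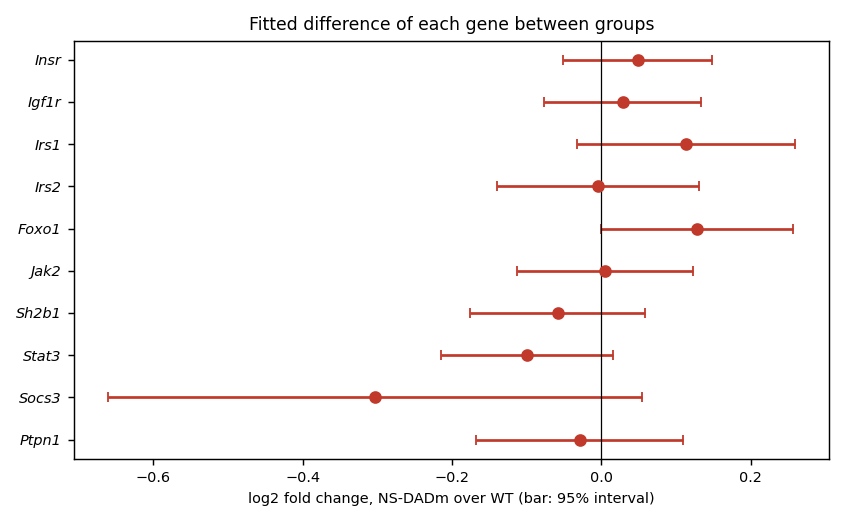
Fitted log2 fold change of NS-DADm over WT for each gene (points) with its 95% interval (bars), receptors at the top and inhibitors at the bottom. The intervals of 9 genes cross 0; that of Foxo1 begins just above 0 (0.00016), and that of Socs3 is the widest, from -0.66 to 0.06.

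Insr encodes the insulin receptor (chromosome 8, 3122061 to 3279617, minus strand, GRCm38, the build also called mm10). It measured 101, 96.7 and 98.8 CPM in NS-DADm 1, 2 and 3, and 95.2, 96.4 and 95.3 CPM in WT 1, 2 and 3. The lowest NS-DADm library lay just above the highest WT library, so the groups were separate by a narrow margin. The fitted difference was a log2 fold change of 0.05 ± 0.05 (SE), with a fold of 1.03 and an interval of 0.965 to 1.11 (edgeR, BH adjusted p = 0.78).

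Igf1r, the receptor for insulin-like growth factors (chromosome 7, 67952827 to 68233668, plus strand), measured 86.1, 82.3 and 85.5 CPM in NS-DADm mice and 85.6, 81.5 and 81.8 CPM in WT mice. The groups overlapped, with WT 1 between NS-DADm 1 and NS-DADm 3. Its log2 fold change was 0.03 ± 0.05 (SE), with an interval of 0.948 to 1.10-fold (edgeR, BH adjusted p = 0.90). Over the 15 alternative fits the log2 fold change ran from 0.016 to 0.15. Insr and Igf1r share 76.8% identity over 966 transcript bases.

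Irs1 (chromosome 1, 82233101 to 82291416, minus strand) and Irs2 (chromosome 8, 10984681 to 11008458, minus strand) encode the docking proteins that carry the signal from both receptors to PI3K. Irs1 measured 36.8, 32.9 and 33.3 CPM in NS-DADm mice, and 30.6, 30.8 and 33.7 CPM in WT mice. NS-DADm 1 was the highest of the 6, but WT 3 lay above the other NS-DADm libraries. The log2 fold change of Irs1 was 0.11 ± 0.07 (SE), with an interval of 0.978 to 1.20-fold (edgeR, BH adjusted p = 0.60). It was 0.06 without NS-DADm 1. GENCODE places an antisense gene over 30.9% of the exon bases of Irs1; it is not among the symbols of the count tables, and since the strand setting is not given, antisense reads there cannot be told apart from those of Irs1.

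Irs2, the substrate most tied to hypothalamic insulin action in mice, measured 60.7, 55.8 and 57.8 CPM in NS-DADm mice and 54.6, 62.9 and 57.3 CPM in WT mice. WT libraries spanned the whole range of NS-DADm libraries. The fitted log2 fold change was -0.0044 ± 0.06 (SE), with an interval of 0.908 to 1.09-fold (edgeR, BH adjusted p = 0.99).

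Foxo1 encodes the forkhead factor that insulin, through AKT, keeps out of the nucleus and that favours expression of the feeding peptide gene Agrp (chromosome 3, 52268336 to 52353221, plus strand). Its levels were 34.5, 36.2 and 35.8 CPM in NS-DADm libraries, against 33.6, 32.7 and 31.1 CPM in WT libraries. Every NS-DADm library lay above every WT library. With a mean of 35.5 ± 0.91 against 32.5 ± 1.3 CPM (SD, n = 3 each), the fold was 1.09 and its interval 1.00 to 1.20. The log2 fold change was 0.13 ± 0.06 (SE; edgeR, BH adjusted p = 0.46). Foxo1 had the smallest unadjusted p of the signalling genes, ranking 1715 among the 15894 genes. Its log2 fold change ran from 0.10 to 0.16 over the 15 alternative fits, above 0 in each, with a BH adjusted p of 0.21 or more throughout. An antisense gene annotated by GENCODE covers 7.78% of the exon bases of Foxo1, and its reads cannot be told apart here.

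Jak2, the kinase bound to the leptin receptor (chromosome 19, 29251828 to 29313080, plus strand), measured 57.1, 54.7 and 54.1 CPM in NS-DADm mice and 53.3, 54.6 and 57.5 CPM in WT mice. Both groups covered nearly the same range. The log2 fold change was 0.0046 ± 0.05 (SE), with an interval of 0.925 to 1.09-fold (edgeR, BH adjusted p = 0.99).

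Sh2b1 encodes an adaptor that binds JAK2 and enhances leptin and insulin signals (chromosome 7, 126466994 to 126475424, minus strand). Its levels were 67.8, 65.2 and 65.5 CPM in NS-DADm mice, against 73.1, 66.9 and 66.6 CPM in WT mice. WT 1 stood above the remaining libraries, which lay close together. Its log2 fold change was -0.06 ± 0.05 (SE), with an interval of 0.885 to 1.04-fold (edgeR, BH adjusted p = 0.78).

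Stat3, the transcription factor that carries the leptin signal to the nucleus (chromosome 11, 100885098 to 100939540, minus strand), measured 84.0, 80.8 and 84.0 CPM in NS-DADm libraries and 84.6, 94.2 and 87.7 CPM in WT libraries. The groups did not overlap, though WT 1 exceeded NS-DADm 1 by under 1 CPM. The mean was 82.9 ± 1.8 CPM in NS-DADm, against 88.8 ± 4.9 CPM in WT mice (SD, n = 3 each). The fitted log2 fold change was -0.10 ± 0.05 (SE), or 0.933-fold with an interval of 0.862 to 1.01 (edgeR, BH adjusted p = 0.54). Without WT 2, the highest library, it was -0.06, and without WT 1 it was -0.13 (edgeR, BH adjusted p = 0.80 and 0.20).

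Socs3 encodes the inhibitor that STAT3 induces and that in turn blocks JAK2 (chromosome 11, 117966079 to 117970047, minus strand). It was the least abundant of the 10 genes, with 66, 78 and 68 reads in NS-DADm 1, 2 and 3, and 93, 108 and 70 reads in WT 1, 2 and 3. These gave 2.70, 2.82 and 2.59 CPM in NS-DADm libraries and 3.40, 3.95 and 2.65 CPM in WT libraries. NS-DADm libraries were tightly grouped, while WT 3 lay within their range and WT 1 and WT 2 above it. The mean was 2.70 ± 0.12 CPM in NS-DADm, against 3.33 ± 0.65 CPM in WT mice (SD, n = 3 each). The log2 fold change of -0.30 ± 0.17 (SE), or 0.811-fold, had an interval of 0.633 to 1.04 (edgeR, BH adjusted p = 0.56). It depended on single WT libraries, at -0.44 without WT 3 and -0.16 without WT 2 (edgeR, BH adjusted p = 0.49 and 0.81).

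The Socs3 promoter is shown because this gene is the standard transcriptional readout of STAT3 and had the largest fitted change of the 10. The letters below are the 250 bases before the RefSeq start site, chr11:117969367-117969616 on the minus strand of GRCm38.p6, read 5′ to 3′. The longer GENCODE gene begins further upstream and contains that start site and all 250 bases. Capitals mark a match to the STAT motif TTCNNNGAA, which reads the same on both strands; it begins at position -154 from the start site.
Socs3 promoter: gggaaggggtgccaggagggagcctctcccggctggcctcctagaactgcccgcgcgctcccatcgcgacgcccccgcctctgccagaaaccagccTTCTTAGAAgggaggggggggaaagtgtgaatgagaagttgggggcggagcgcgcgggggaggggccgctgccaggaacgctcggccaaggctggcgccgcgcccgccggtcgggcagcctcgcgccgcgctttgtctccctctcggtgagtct
RefSeq windows of 300 bases around start sites were given for 9 of the 10 genes; Insr had none, and Sh2b1 had 2. This match in Socs3 was the only one for TTCNNNGAA, a motif held by 8.30% of all 32851 such windows. The FOXO motif GTAAACA, searched on both strands, was in 3.65% of all windows and in 0 of the windows of these genes. A match describes the letters only, and its absence says nothing of whether a factor binds.

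Ptpn1 encodes PTP1B, which removes phosphate from JAK2 and from the insulin receptor (chromosome 2, 167932057 to 167979385, plus strand). It measured 40.3, 35.5 and 35.9 CPM in NS-DADm mice and 38.6, 37.0 and 38.3 CPM in WT mice. NS-DADm libraries held both the highest and the lowest values. The log2 fold change was -0.03 ± 0.06 (SE), with an interval of 0.890 to 1.08-fold (edgeR, BH adjusted p = 0.93).

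**Figure D2:**
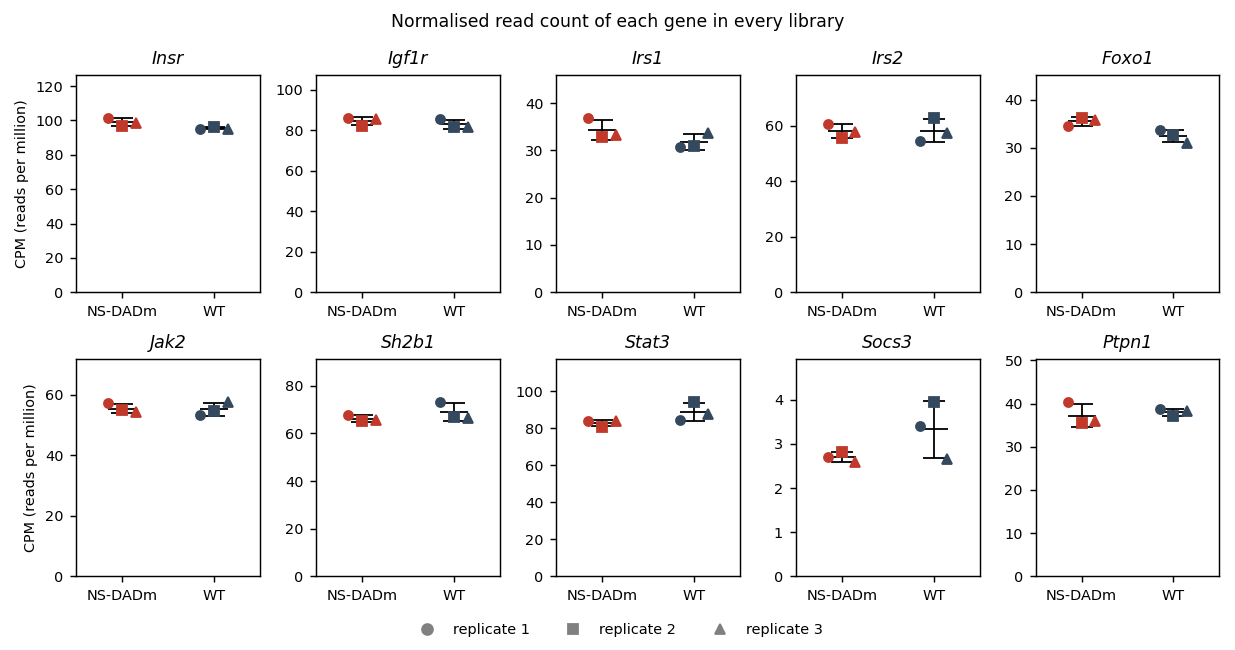
CPM of the 10 genes in each library, NS-DADm left and WT right, with axes from 0; symbols give the replicate, horizontal ticks the mean and bars the SD (n = 3). The groups overlap for 7 genes, and only Insr, Foxo1 and Stat3 have every library of one group on one side of the other group.

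Between genes, levels were compared as RPKM, CPM per 1000 bases of joined exons. Sh2b1 was highest, at 16.6 to 18.6 RPKM over the 6 libraries, followed by Jak2 at 10.6 to 11.4 RPKM. Irs2 (8.63 to 9.94 RPKM) and Stat3 (8.49 to 9.89 RPKM) overlapped each other, as did Insr (6.92 to 7.38 RPKM) and Ptpn1 (6.41 to 7.29 RPKM). Igf1r followed at 4.85 to 5.13 RPKM. Foxo1 (3.58 to 4.17 RPKM) and Irs1 (3.35 to 4.03 RPKM) again overlapped, and Socs3 was lowest at 0.895 to 1.37 RPKM. The highest and lowest genes differed 15.2-fold in WT mice, far more than any gene differed between groups. Some positions rest on the length used: with the longest transcript in place of joined exons, a choice made after the data had been seen, Stat3 took position 2 at a mean of 14.2 RPKM and Insr position 4 at 10.4 RPKM, ahead of Irs2 at 9.20 RPKM.

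**Figure D3:**
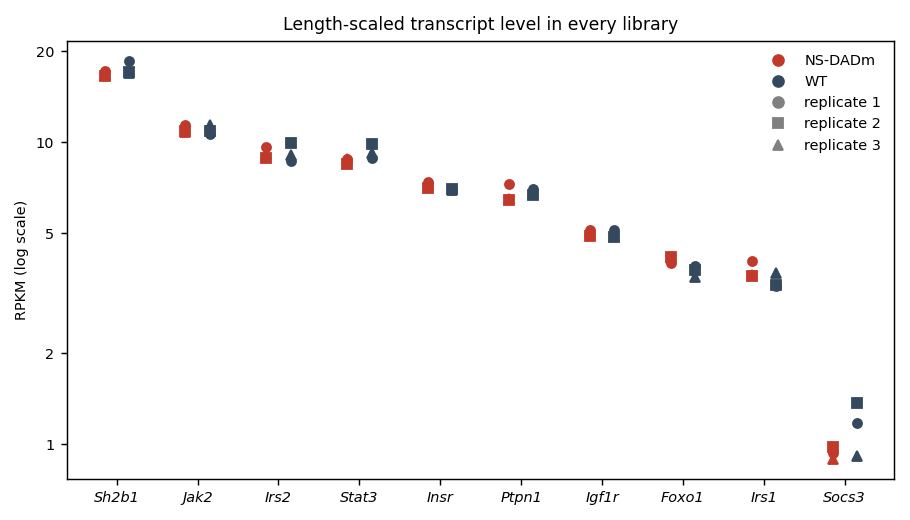
RPKM (log scale) of each gene in the 6 libraries, genes ordered by mean level; within a gene NS-DADm points stand left of WT points. The genes span from about 1 RPKM (Socs3) to 17.2 RPKM (Sh2b1, mean of all libraries), and the groups lie close together within each gene.

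The balance between related receptors and substrates was compared within libraries, where scaling has no part. The ratio of Insr to Igf1r RPKM was 1.44, 1.43 and 1.41 in NS-DADm 1, 2 and 3, and 1.36, 1.45 and 1.42 in WT 1, 2 and 3. WT libraries enclosed the NS-DADm values (exact two-sided permutation test of the mean log2 ratio, p = 0.7). For Irs1 over Irs2 the ratio was 0.420, 0.408 and 0.398 in NS-DADm mice, against 0.388, 0.339 and 0.406 in WT mice. WT 3 lay between NS-DADm libraries, so the groups overlapped (exact two-sided permutation test, p = 0.2). With 3 libraries against 3, this test cannot give a p below 0.1, so it cannot settle whether either ratio differed.

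The leptin receptor gene Lepr, named for its place in the pathway after its values were seen, had 180, 203 and 204 reads in NS-DADm and 180, 212 and 188 reads in WT libraries. That is 7.36, 7.35 and 7.76 CPM in NS-DADm, against 6.58, 7.75 and 7.12 CPM in WT mice, with overlapping groups (log2 difference 0.07 ± 0.10 SE; edgeR, BH adjusted p = 0.89). Irs4, an IRS protein gene of the hypothalamus also named after its values were seen, was more abundant per length than Irs1 and Irs2, at 28.6 to 32.1 RPKM in NS-DADm and 24.0 to 31.3 RPKM in WT libraries. Its groups overlapped as well (log2 difference 0.14 ± 0.09 SE; edgeR, BH adjusted p = 0.63).

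Genes upstream of the receptors held 2 of the 4 calls among the other pathway genes. Of 10 tested genes for insulin and IGF ligands, their binding proteins and other receptors of the family, 2 fell and 0 rose past the threshold, beside 0.573% and 0.0818% of all tested genes. In all, 9 of the 10 were fitted below 0, beside 48.4% of all tested genes. The median log2 fold change of the 10 was -0.31. It was -0.08 without WT 1, -0.55 without NS-DADm 1, -0.49 without WT 2 and 0.50 with the level of the thalamus markers as a covariate. Igf1 and Igfbp5 were the 2 that fell. The insulin gene Ins1 had 0 reads in every library, and Ins2 had 2 reads in NS-DADm 2 and 0 elsewhere.

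Igf1, which encodes the ligand of IGF1R (chromosome 10, 87858265 to 87937042, plus strand), measured 5.89, 5.54 and 6.28 CPM in NS-DADm mice and 11.7, 8.19 and 11.5 CPM in WT mice. All NS-DADm libraries lay below all WT libraries, of which WT 2 was the lowest. Igf1 fell to 0.564-fold (log2 -0.83 ± 0.14 SE; edgeR, BH adjusted p = 0.023). The call was lost on leaving out NS-DADm 1, 2 or 3 (edgeR, BH adjusted p = 0.060, 0.16 and 0.11) or WT 3 (0.11). With the mean level of the thalamus markers as a covariate, the log2 fold change of Igf1 was -0.06 (edgeR, BH adjusted p = 0.96).

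Igfbp5 encodes a secreted protein that binds IGFs (chromosome 1, 72857932 to 72874884, minus strand). It measured 230, 191 and 194 CPM in NS-DADm mice, against 271, 278 and 301 CPM in WT mice. The groups were well apart, and Igfbp5 fell to 0.723-fold (log2 -0.47 ± 0.07 SE; edgeR, BH adjusted p = 0.019). It was not called on leaving out NS-DADm 2 or 3 (edgeR, BH adjusted p = 0.13 and 0.11) or WT 3 (0.077). With the thalamus covariate its log2 fold change was -0.38 (edgeR, BH adjusted p = 0.53). Igf2 and Igfbp2, for a second ligand and a further binding protein, had log2 fold changes of -0.68 and -0.72 that did not pass, with groups that overlapped. Without WT 2 both were called, at -0.94 for Igf2 and -1.001 for Igfbp2 (edgeR, BH adjusted p = 0.00055 and 0.032), and without WT 1 their log2 fold changes were -0.39 and -0.31 (0.66 and 0.54). Igf2 measured 24.8, 26.5 and 24.9 CPM in NS-DADm, against 55.4, 24.4 and 42.2 CPM in WT libraries. Leptomeningeal markers, whose cells express Igf2, summed to 46.2 to 48.2 CPM in NS-DADm, against 37.2 to 65.9 CPM in WT libraries; their part in this was not tested.

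Of 20 tested genes for other adaptors and inhibitors at the insulin and IGF1 receptors, 1 fell and 0 rose past the threshold, beside 0.573% and 0.0818% of all tested genes. Their median log2 fold change was 0.03, and 5 of 20 were fitted below 0, beside 48.4% of all tested genes. The gene that fell was Shc3, a neuronal adaptor that links receptor tyrosine kinases to RAS (chromosome 13, 51431041 to 51569419, minus strand). Shc3 measured 23.7, 22.8 and 24.5 CPM in NS-DADm mice and 33.7, 30.1 and 30.5 CPM in WT mice, with no overlap (log2 -0.41 ± 0.07 SE; edgeR, BH adjusted p = 0.020). Leaving out NS-DADm 2 or 3 put the BH adjusted p of Shc3 in edgeR at 0.15 and 0.11 and leaving out WT 3 put it at 0.066, so each ended the call, and with the thalamus covariate its log2 fold change was -0.17 (edgeR, BH adjusted p = 0.77). Grb14, an inhibitor of the insulin receptor, had a log2 fold change of -0.32 (edgeR, BH adjusted p = 0.088). Grb14 was called with no count filter (edgeR, BH adjusted p = 0.044), and with the thalamus covariate its log2 fold change was -0.16 (0.82). The ubiquitin ligase gene Cbl had 0.17 and the RAS exchange factor gene Sos1 0.13, neither past the threshold.

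The PI3K, AKT and mTOR branch had 29 tested genes, of which 0 passed the threshold in edgeR, beside 0.654% of all tested genes. Of the 29, 1 (Deptor) had an unadjusted p under 0.05, beside 10.9% of all tested genes. The DESeq2 Wald test and limma voom called 0 of the 29, beside 282 and 86 of all tested genes. The median log2 fold change was -0.02, with 18 of 29 fitted below 0, beside 48.4% of all tested genes. Deptor, an inhibitor of mTOR, had a log2 fold change of -0.21 ± 0.07 (SE; edgeR, BH adjusted p = 0.27). Deptor was called without WT 1, at -0.26 (edgeR, BH adjusted p = 0.047), and was at -0.14 without WT 3 (0.63). Those of Pik3cb (a PI3K catalytic subunit) and Inppl1 (a lipid phosphatase) were both -0.12.

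Other FOXO factors and FOXO target genes numbered 16 tested, with 1 lower and 0 higher past the threshold, beside 0.573% and 0.0818% of all tested genes. The median log2 fold change of the 16 was 0.0024. Fbxo32, a ubiquitin ligase gene induced by FOXO factors in muscle (chromosome 15, 58175879 to 58214932, minus strand), measured 17.6, 15.6 and 15.2 CPM in NS-DADm mice, against 20.5, 21.3 and 23.3 CPM in WT mice. It fell to 0.742-fold without overlap between groups (log2 -0.43 ± 0.08 SE; edgeR, BH adjusted p = 0.034). The call on Fbxo32 was lost with scaling by library size alone (edgeR, BH adjusted p = 0.053) and on leaving out NS-DADm 2 or 3 (0.22 and 0.24) or WT 3 (0.17). With the thalamus covariate the log2 fold change of Fbxo32 was -0.42 (edgeR, BH adjusted p = 0.53). Txnip, a regulator of thioredoxin and glucose uptake, had 0.39 ± 0.12, Foxo4 had -0.18 and the stress response gene Sesn3 had 0.11, none past the threshold. Txnip was highest in NS-DADm 2; without that library its log2 fold change was 0.24, and without NS-DADm 1 it was called at 0.51 (edgeR, BH adjusted p = 0.53 and 0.043).

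On the leptin side, 25 genes were tested for its receptor, other JAK and STAT proteins and their inhibitors. In edgeR 0 passed the threshold and 2 had an unadjusted p under 0.05, beside 0.654% and 10.9% of all tested genes. Both were fitted above 0. The DESeq2 Wald test and limma voom called 0 of the 25, beside 282 and 86 of all tested genes. The median log2 fold change was 0.0064. Cish, an inhibitor induced by STAT5, measured 6.79, 6.81 and 6.92 CPM in NS-DADm, against 4.90, 4.68 and 5.76 CPM in WT mice. The groups did not overlap, but its log2 fold change of 0.42 ± 0.11 (SE) did not pass (edgeR, BH adjusted p = 0.14). Pias3, an inhibitor of STAT3, had a log2 fold change of 0.14, while Stat6 and the phosphatase gene Ptpn2 had -0.23 and -0.12. Among 11 tested STAT3 targets, 0 passed in edgeR and 2 had an unadjusted p under 0.05, beside 0.654% and 10.9% of all tested genes. Both were fitted below 0. The DESeq2 Wald test and limma voom called 0 of the targets, beside 282 and 86 of all tested genes. The median log2 fold change of the targets was -0.21; it was -0.32, -0.13 and -0.06 on leaving out NS-DADm 1, 2 or 3, and -0.09, -0.23 and -0.12 on leaving out WT 1, 2 or 3. Serpina3n, a protease inhibitor gene of reactive astrocytes, had a log2 fold change of -0.28 and the kinase gene Pim1 -0.34, while Junb and Icam1 had -0.35 and -0.22. Serpina3n was called without WT 1, at -0.37 (edgeR, BH adjusted p = 0.023). With 1 library left out, Junb ran from -0.55 without WT 1 to -0.18 without WT 3, and Icam1 from -0.35 without WT 2 to -0.10 without WT 1 or NS-DADm 3.

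**Figure D4:**
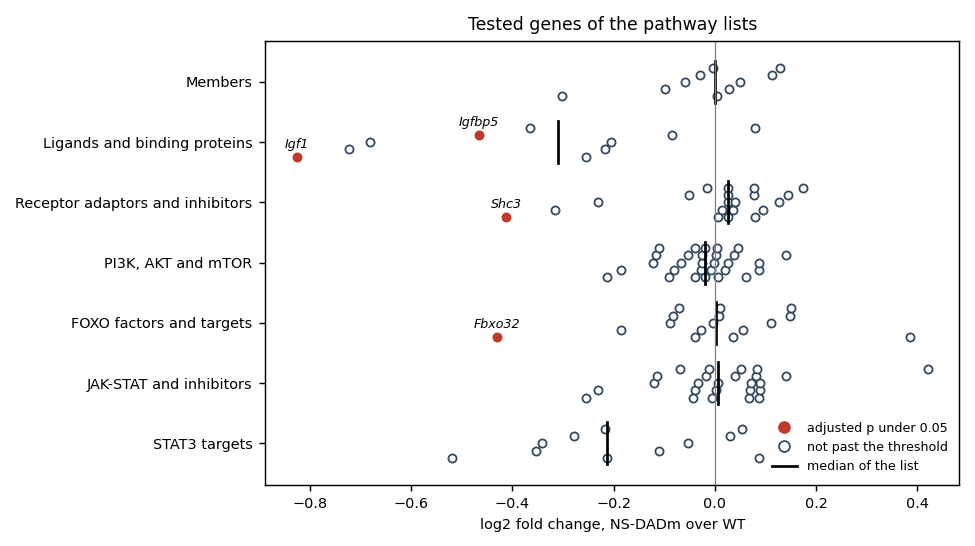
Log2 fold change of NS-DADm over WT for each tested gene, 1 row per list; filled points passed the threshold and vertical lines are list medians. The 4 filled points, Igf1, Igfbp5, Shc3 and Fbxo32, all lie left of 0, and the row of the 10 signalling genes holds none.

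The NS-DADm libraries were lower than the WT libraries both in thalamus markers and in the 4 called pathway genes. Averaged over the 13 markers, log2 CPM stood at 4.55, 4.23 and 4.51 in the NS-DADm libraries 1, 2 and 3, against 5.96, 5.17 and 5.64 in WT 1, 2 and 3, so the groups did not overlap in this measure. Igf1 was lowest in NS-DADm 2 and highest in WT 1, the libraries at the ends of the marker range. Shc3 was likewise lowest in NS-DADm 2 and highest in WT 1. Within WT mice Igfbp5 and Fbxo32 were lowest in WT 1, the library highest in the markers. Within NS-DADm mice Igfbp5 and Fbxo32 were instead highest in NS-DADm 1, the NS-DADm library highest in the markers. The markers moved with the genotype, and in these libraries the 2 cannot be told apart. Averaged over the 10 signalling genes, log2 CPM was 5.44, 5.38 and 5.38 in NS-DADm and 5.41, 5.45 and 5.38 in WT libraries, and the groups overlapped. With the covariate, 0 of them passed the threshold, beside only 9 of all tested genes. In that fit the log2 fold change was 0.13 for Foxo1, -0.26 for Stat3 and -0.70 for Socs3 (edgeR, BH adjusted p = 0.83, 0.53 and 0.59).

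**Figure D5:**
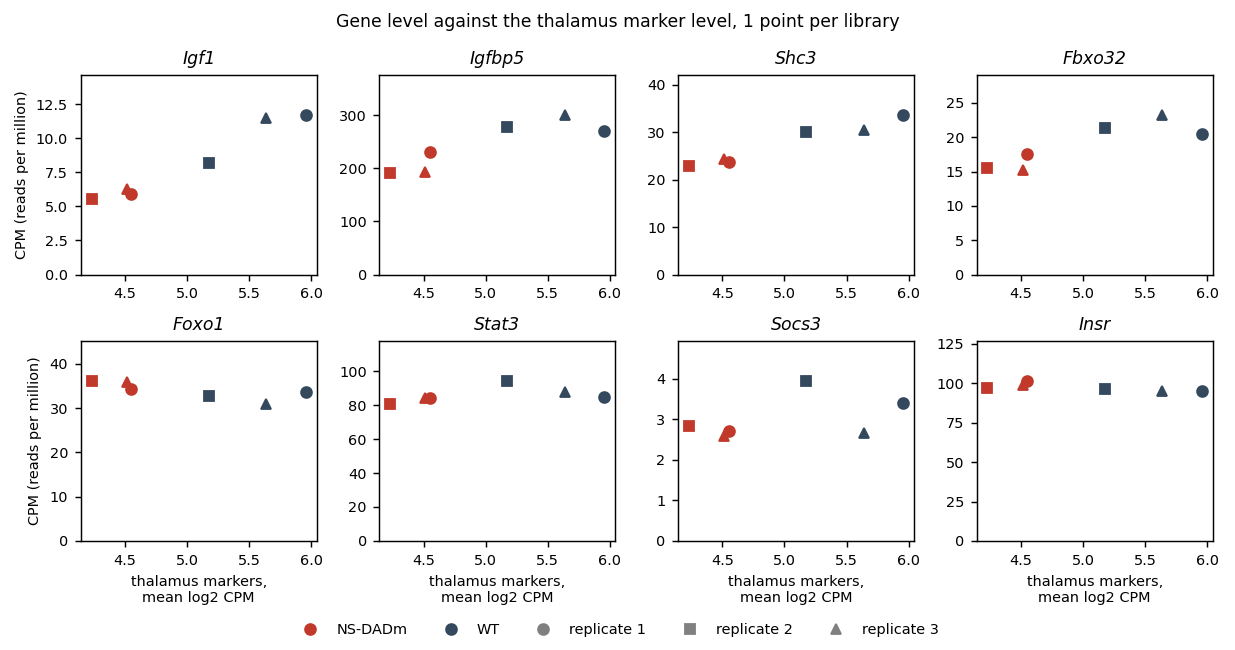
CPM of the 4 called pathway genes (top) and of Foxo1, Stat3, Socs3 and Insr (bottom) against the mean log2 CPM of 13 thalamus markers, 1 point per library. NS-DADm libraries lie between 4.23 and 4.55 on the marker axis and WT libraries between 5.17 and 5.96; Igf1 is higher where the markers are higher, whereas Insr is nearly level.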

How the data were processed

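RNA was sequenced from hypothalamus of 3 NS-DADm and 3 WT mice, 1 library per animal. The authors aligned reads with TopHat2 2.0.9 to mm10 and deposited read counts per gene made with HTSeq, per the submitters' processing notes; for the annotation and strand setting the labels give nothing. The last 5 rows of each table, unassigned reads, were left out of library sizes and tests; of all entries, 13.3 to 14.8% lay in no gene, 1.00 to 1.06% were ambiguous and 14.3 to 16.5% were not uniquely aligned.

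After filterByExpr and TMM scaling, counts were tested over 15894 genes with the edgeR 4.0.16 quasi-likelihood F test in R 4.3.3 (robust, no covariate; BH adjustment), checked on simulated counts. SE and 95% intervals came from the F statistic. RPKM used joined exons of GENCODE vM21 (GRCm38). Other fits used DESeq2 1.42.0, limma 3.58.1, other scaling and filters, a replicate block, a thalamus marker covariate and each library left out. Transcripts were compared with BLAST 2.17.0, and figures drawn with matplotlib 3.10.9.

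The signalling genes, pathway and marker lists were chosen with earlier results of these data known. Named genes were the 10 members and, per pathway list, those past the threshold and otherwise those with the smallest unadjusted p, up to 4; 1 gene so chosen is not reported here. Marker lists for neurons, astrocytes, oligodendrocytes, microglia, endothelium, choroid plexus and blood had medians of -0.06, -0.05, -0.19, 0.0080, -0.08, 0.32 and 0.74 (log2, NS-DADm over WT) and held 1 call, the oligodendrocyte gene Ugt8a, lower; among hypothalamus markers Trh was called higher. The thalamus calls were Lef1, Rgs16, Plekhg1, Plcb4 and Slitrk6. The 4 globin genes listed for blood had 0 counts in all libraries. The blood median rests on 2 tested genes, S100a9 at 1.48 and Alas2 at -0.0079, neither past the threshold.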

Additional observations from a re-analysis of the deposited data

How the results depend on the processing

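None of the 10 signalling genes passed the threshold in any of the 15 alternative fits, where the smallest BH adjusted p was 0.20 (Stat3 without WT 1). The count of all called genes, 104, was 203 with no count filter, 282 with the DESeq2 Wald test, 9 with the thalamus marker covariate and 5 to 312 with 1 library left out; it was 5 without NS-DADm 2, 8 without NS-DADm 3, 10 without WT 3, 262 without WT 2 and 312 without WT 1. The cause of these shifts was not tested. Replicate numbers are shared by the groups, and the labels do not say whether they pair the animals. Deviations of same-numbered libraries correlated at 0.18, 0.11 and -0.02. NS-DADm 1 and NS-DADm 2 correlated best with their own number, and NS-DADm 3 did not. So few libraries cannot settle whether the numbers mark pairs. A replicate block gave 409 calls and 0 among the 10 genes; Grb14 was called with it (edgeR, BH adjusted p = 0.027).

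Of 150 refitted values of the 10 genes, 138 kept their direction and 12 changed sign. Irs2 had log2 fold changes of 0.0069 with upper quartile scaling, 0.0086 with library size scaling, -0.20 with the thalamus marker covariate, and -0.046 to 0.054 with 1 library left out (0.024 without NS-DADm 2, 0.054 without WT 2). Jak2 had -0.0019 with no count filter, -0.0055 with the covariate and -0.017 to 0.035 with 1 library left out (below 0 without NS-DADm 1, WT 1 or WT 2). Ptpn1 had 0.12 with the covariate and -0.088 to 0.0052 with 1 library left out (above 0 without NS-DADm 2), and Sh2b1 had 0.11 with the covariate. The log2 ratio of Insr to Igf1r differed by -0.0063 to 0.039 with 1 library left out (below 0 without WT 1). Other genes changed sign with the covariate, at 1.10 for Igfbp2, 0.82 for Igf2, -0.13 for Sos1, 0.055 for Inppl1, -0.071 for Sesn3, 0.18 for Stat6, 0.057 for Ptpn2, 0.43 for Icam1, 0.040 for Slitrk6 and -0.20 for Lepr. Slitrk6 is itself among the thalamus markers averaged into the covariate, so its value in that fit is not an independent result. Counting error limits Socs3 most, at 66 to 108 reads a library. With 3 animals a group, p-values rest on the spread between these animals alone.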
